A study of Mus musculus with 6 samples.

Results

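Interferon-gamma (IFNγ), the 2 chains of its receptor, the kinases bound to that receptor and its early response genes were followed across the immune cells of treated and untreated mice bearing ovarian tumors. The set holds 7 genes of the 32285 in the count matrices, chosen by symbol with earlier results of these data known: Ifng, Ifngr1, Ifngr2, Jak1, Jak2, Irf1 and Socs1. Each symbol matched 1 gene. In 6 single-cell libraries, 1 mouse each, animals received control treatment, a glycan inhibitor (2DG or 2FF), the checkpoint antibody anti-PD-L1, or that antibody with an inhibitor: 2DG plus anti-PD-L1 is called the 2DG combination and 2FF plus anti-PD-L1 the 2FF combination. By the study's methods, all were female immunocompetent C57BL/6 mice with orthotopic ovarian tumors of KPCA, an engineered mouse line whose changes include mutant Trp53 and overexpressed Ccne1 and Akt2. 2DG (2-deoxy-D-glucose) was given to block branched N-glycans and 2FF to block fucosylation. The study names 2FF as 2-fluoro-L-fucose, where the sample labels have 2F-Peracetyl-Fucose. The 2FF was given by gavage, and tumor cells for those mice were also exposed to it before injection, whereas 2DG and the antibody were injected into the peritoneum. Control mice received solvent and control rat IgG. The sample labels name lymph node as the tissue, where the study describes tumors, and no label gives an age, so the cells are described here by their markers. With 1 mouse per treatment, no difference between libraries could be set against a spread between mice, and the intervals given cover counting error only.

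IFNγ is secreted mainly by activated T cells and NK cells. It binds a receptor made of IFNGR1, which holds the ligand, and IFNGR2, needed for the signal. JAK1 sits on the former chain and JAK2 on the latter, and together they start the signal that turns on genes with a GAS element. Among the first of these is IRF1, a transcription factor that drives a second wave of antigen presentation, chemokine and GTPase genes. SOCS1 is induced by the same signal and inhibits the kinases. In tumors, IFNγ is known both for raising antigen presentation and T cell recruiting chemokines and for inducing PD-L1.

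The genes lie on 5 chromosomes of GRCm38. Ifng is at chr10:118441046-118445892 and Ifngr1 at chr10:19591949-19610229, both on the plus strand. Ifngr2 is at chr16:91547072-91565623 on the plus strand and Socs1 at chr16:10782240-10785536 on the minus strand. Jak1 is at chr4:101152367-101265282 on the minus strand, Jak2 at chr19:29251828-29313080 and Irf1 at chr11:53770014-53778374, both on the plus strand. All 7 are annotated as protein coding. Irf1 and Socs1 were both more than 2-fold above control in monocyte-gated cells of all 5 treated libraries. The 250 bases before the start of each are shown with those of Ifng, from RefSeq on GRCm38.p6. Capitals mark matches to TTCNNNGAA, the GAS pattern, which reads the same on both strands, or to GAAANNGAAA, a pattern of interferon-response elements searched on both strands.

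Ifng, chr10:118440796-118441045, plus strand: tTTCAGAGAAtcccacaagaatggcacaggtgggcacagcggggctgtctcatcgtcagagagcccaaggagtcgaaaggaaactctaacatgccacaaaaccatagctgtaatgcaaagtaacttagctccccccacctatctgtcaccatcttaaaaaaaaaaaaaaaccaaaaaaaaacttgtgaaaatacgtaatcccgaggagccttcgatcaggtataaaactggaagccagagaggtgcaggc
Irf1, chr11:53769764-53770013, plus strand: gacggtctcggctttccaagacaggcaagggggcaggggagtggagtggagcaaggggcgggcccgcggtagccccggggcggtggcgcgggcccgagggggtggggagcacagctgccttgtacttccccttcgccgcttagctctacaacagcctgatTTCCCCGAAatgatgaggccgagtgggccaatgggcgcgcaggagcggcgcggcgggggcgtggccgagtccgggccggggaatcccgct
Socs1, chr16:10785537-10785786, minus strand: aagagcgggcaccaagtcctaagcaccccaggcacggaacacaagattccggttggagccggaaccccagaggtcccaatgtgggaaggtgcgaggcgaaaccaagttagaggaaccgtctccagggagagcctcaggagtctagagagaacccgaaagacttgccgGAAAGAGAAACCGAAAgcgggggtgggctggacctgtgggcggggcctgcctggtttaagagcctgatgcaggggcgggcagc

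The Irf1 match began 90 bases before the start and the Ifng match 249 bases before it. In Socs1, overlapping matches to the second pattern began 83 and 77 bases before the start. Of all 32851 windows of this length, 7.02% hold TTCNNNGAA and 2.98% hold GAAANNGAAA. A second listed Irf1 start and the windows of Ifngr1, Ifngr2, Jak1 and Jak2 hold neither pattern, which says only that these letters are not in those 250 bases.

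Cells with at least 250 genes and at most 5% mitochondrial UMIs numbered 7703 to 9222 per library, with 59741689 to 72277591 UMIs. A cell was gated into the class for which it had the most detected markers, at least 2 and more than for any other class, and 85.0% to 87.7% of cells were gated. Levels are UMIs of a gene scaled to the total UMIs of the class in that library and given per 1000000 UMIs (CPM). The control library stood apart in its makeup: it held 3480 neutrophil-gated cells against 273 to 494 in the treated libraries, and 122 CD8 T-gated cells against 1159 to 2077. It enters every ratio over control below. Of 56687 barcodes, 389 occurred in more than 1 library, and without them each of 77 recomputed ratios stayed within its counting interval. No library was rich in keratin-positive cells, with 2 to 23 tumor-gated cells each, so tumor cells are given only as a pool.

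Ifng was a product of T and NK cells in all 6 libraries. T-gated and NK-gated cells held 88.1% of the control library's 530 Ifng UMIs and 94.4% to 95.2% of the 7543 to 12153 in each treated library. CD8 T-gated cells alone held 34.5% in the control library and 58.1% to 70.7% in the treated ones. Over all kept cells, Ifng stood at 7.33 CPM in the control library and at 126 to 176 in the treated libraries, and the CD8 T-gated cells were both more numerous there and higher in Ifng.

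**Figure D1:**
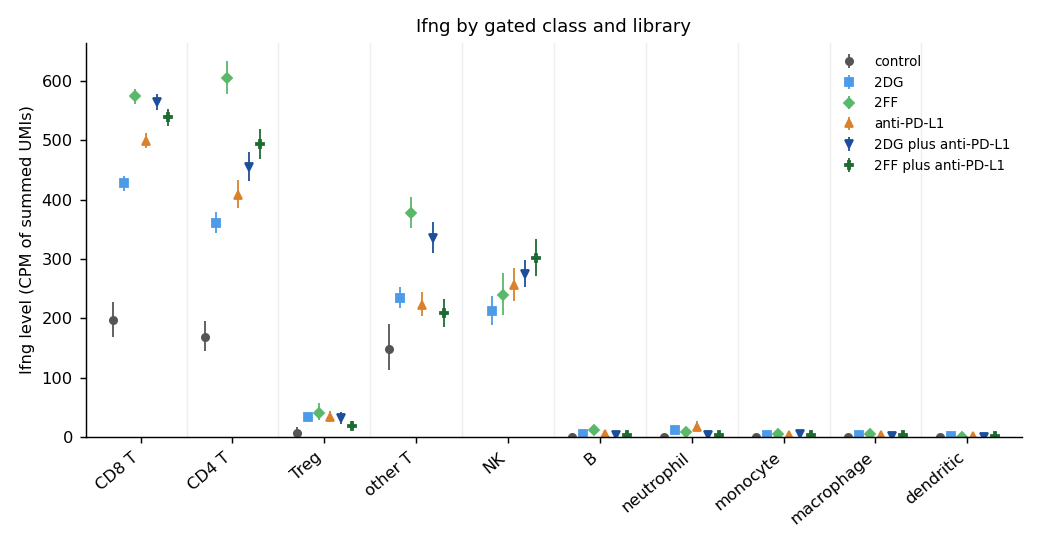
Ifng level (CPM of summed UMIs, linear axis) in 10 gated classes, with 1 point per library and bars for the exact Poisson 95% interval; classes under 50 cells are not drawn. The 5 treated libraries lie above the control library in CD8 T-gated and CD4 T-gated cells, and B-gated and myeloid classes lie at or near 0.

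In CD8 T-gated cells, Ifng was at 197 CPM in the control library (95% interval 169 to 228, 183 UMIs). It was at 427 with 2DG, 574 with 2FF, 499 with anti-PD-L1, 565 with the 2DG combination and 538.5 with the 2FF combination. All 5 treated libraries were thus above the control interval, and 2DG was the lowest of them. The log2 ratio over control, with 5 CPM added to both levels, was 1.10 for 2DG (0.90 to 1.34), 1.52 for 2FF (1.33 to 1.76), 1.32 for anti-PD-L1 (1.13 to 1.56), 1.50 for 2DG plus anti-PD-L1 (1.31 to 1.74) and 1.43 for 2FF plus anti-PD-L1 (1.24 to 1.67). The intervals here and below are exact ones for the ratio of 2 Poisson counts without the added 5 CPM. The 2DG value is near the 2-fold line and was 0.98 when cells were thinned to 1000 UMIs. Ifng was the only member past 2-fold in these cells in each comparison, 1 of 7, where 2.54%, 3.2%, 3.2%, 4.06% and 2.91% of all genes with at least 50 UMIs were past 2-fold in either direction, in the same order of treatments.

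More of the CD8 T-gated cells held Ifng, and more held many copies. The share with at least 1 Ifng UMI was 52.5% in the control library (Clopper-Pearson 43.2% to 61.6%), and 68.0%, 76.6%, 71.0%, 74.5% and 76.2% with 2DG, 2FF and anti-PD-L1 and with the 2DG and 2FF combinations. Thinned to 1000 UMIs per cell, with 0 to 7 shallower cells left out per library, the share was 16.8% in the control library and 27.6% to 36.0% in the treated ones. Cells with 5 or more Ifng UMIs made up 10.7% in the control library and 21.7% to 30.9% in the treated ones. The tenth of cells with the most Ifng held 42.1% to 50.4% of the Ifng UMIs, over all 6 libraries. The highest count in 1 cell was 9 in the control library and 67 to 227 in the others. A highest count can rise with the number of cells, which was 122 in the control library and 1159 to 2077 in the others.

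**Figure D2:**
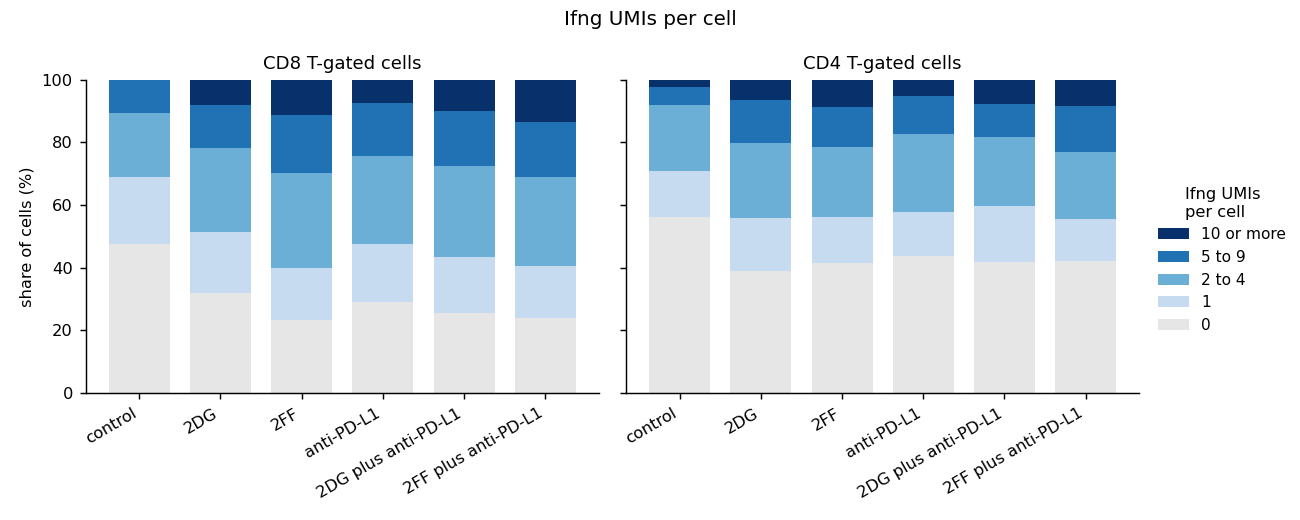
Share of CD8 T-gated (left) and CD4 T-gated (right) cells, in percent, by the number of Ifng UMIs in the cell, with 1 stacked bar per library. Cells with 5 or more Ifng UMIs, the 2 darkest bands, make up 10.7% of CD8 T-gated cells in the control library and at least 21.7% in each treated library.

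CD8 T-gated cells with a UMI of Havcr2, which encodes the checkpoint receptor TIM-3, had more Ifng than those with Tcf7 and no Havcr2, Tcf7 being a factor of naive and stem-like T cells. The Havcr2 group was at 236 CPM in the control library and at 531, 669, 550, 674 and 616 with 2DG, 2FF and anti-PD-L1 and with the 2DG and 2FF combinations. The Tcf7 group was at 63.0 CPM in the control library, from 10 UMIs in 19 cells, and at 135, 132, 213, 181 and 124.5 in the treated libraries. The Havcr2 group was the higher of these in 6 of 6 libraries. It was also the deeper in 5 of 6, at a median of 6779 to 9022 UMIs against 5237 to 8301. Cells with neither gene lay between, at 190 CPM in the control library and 379, 463, 464, 425 and 502.5 in the treated ones. Their control interval, 133 to 263, overlapped that of the Havcr2 group, 198 to 278.5.

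Added to anti-PD-L1, neither glycan inhibitor brought Ifng in CD8 T-gated cells near a 2-fold difference. The log2 ratio over anti-PD-L1 alone was 0.18 for the 2DG combination (0.13 to 0.23) and 0.11 for the 2FF combination (0.06 to 0.16). The latter was 0.22 under a strict gate and 0.04 without the top 1% of cells by Ifng. Over the inhibitor alone, the 2DG combination was higher by 0.40 (0.35 to 0.46), while the 2FF combination was at -0.09 (-0.14 to -0.04), a difference that was 0.01 under the strict gate. None of the 7 members was past 2-fold in these cells over anti-PD-L1 alone, where 0.662% of genes were so with the 2DG combination and 0.507% with the 2FF combination. Among the treated libraries, the order from 2FF (574 CPM) to 2DG plus anti-PD-L1 (565 CPM) lies within overlapping intervals, 562 to 586 and 552 to 578.

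CD4 T-gated cells without Foxp3 showed a like pattern. Ifng was at 169 CPM in the control library and at 361, 605, 408.5, 455 and 493.5 with 2DG, 2FF and anti-PD-L1 and with the 2DG and 2FF combinations. The 2FF library was the highest, and no treated interval reached that of the control library, 145 to 195. The log2 ratio over control was 1.08, 1.81, 1.25, 1.41 and 1.52 (0.99 for the first under the strict gate), with the lowest interval at 0.88 to 1.33 and the highest at 1.62 to 2.07. Ifng was the only 1 of 6 or 7 tested members past 2-fold, beside 2.65%, 4.04%, 2.99%, 4.98% and 3.63% of all genes. Over anti-PD-L1 alone, Ifng was at 0.15 (0.04 to 0.27) for the 2DG combination and 0.27 (0.16 to 0.38) for the 2FF combination, none of the members was past 2-fold, and 1.41% and 0.828% of genes were. The share of these cells with Ifng was 43.8% in the control library and 56.3% to 60.9% in the treated ones.

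Regulatory T cells, gated by Foxp3, carried little Ifng. The level was 7.46 CPM in the control library, from 5 UMIs, and 33.2, 41.2, 34.0, 31.5 and 19.6 in the treated libraries, below every CD8 T-gated and CD4 T-gated value. Between 4.94% and 13.3% of them held an Ifng UMI, or 0.907% to 3.91% at 1000 UMIs per cell. In monocyte-gated cells, which should lack the transcript, the thinned share was 0.0696% to 0.597% and in B-gated cells 0% to 0.934%, at median depths of 6603 to 10209 and 4873.5 to 6222 UMIs, against 4927 to 6682.5 in the regulatory T cells. The Ifng level in B-gated, neutrophil-gated, monocyte-gated, macrophage-gated and dendritic-gated cells ran from 0 to 17.9 CPM. The highest of these, in neutrophil-gated cells with anti-PD-L1, came from 19 UMIs. Whether these UMIs were carried over from other cells was not tested. The level was lowest in the control library in each of these classes, at 0 to 0.717 CPM.

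NK-gated cells held Ifng at 213, 239, 256, 275 and 301 CPM with 2DG, 2FF and anti-PD-L1 and with the 2DG and 2FF combinations. The control library had 21 such cells, with 36 Ifng UMIs (271 CPM, 190 to 375), too few for a ratio. The control interval holds all 5 treated values, and every treated NK value was under every treated CD8 T value. Over anti-PD-L1 alone, Ifng in NK-gated cells was at a log2 ratio of 0.10 (-0.09 to 0.30) for the 2DG combination and 0.23 (0.02 to 0.45) for the 2FF combination. No member was past 2-fold, and 1.98% and 1.09% of genes were.

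Genes known to drive Ifng in lymphocytes were set beside it. Of 9 such genes in CD8 T-gated cells, none was past 2-fold over control with 2DG, 2FF or anti-PD-L1, 2 were higher with 2DG plus anti-PD-L1 (Il12rb2 and Il2ra) and 1 with 2FF plus anti-PD-L1 (Il2ra), where 4.06% and 2.91% of all genes were past it in either direction. The list's median log2 ratio ran from -0.03 to 0.24, beside -0.01 to 0.04 for all genes. Il12rb2, the signaling chain of the interleukin-12 receptor, was at 71.0 CPM in the control library, 69.6, 82.3 and 68.0 with 2DG, 2FF and anti-PD-L1, and 169 and 123 with the 2DG and 2FF combinations. It was 1.25 higher on the log2 scale in the 2DG combination than with anti-PD-L1 alone (1.19 to 1.43) and 0.81 higher in the 2FF combination (0.73 to 0.98). Stat4, which acts downstream of that receptor, was at 410 CPM with anti-PD-L1, 806 with the 2DG combination (0.97, 0.92 to 1.02) and 538 with the 2FF combination (0.39, 0.34 to 0.45). Stat4 was 0.75 higher in the 2DG combination in CD4 T-gated and in NK-gated cells as well. In CD4 T-gated cells, 0 to 3 of 8 or 9 genes of the list were past 2-fold higher and 0 or 1 lower, beside 2.65% to 4.98% of all genes past it. Eomes, a T-box factor, was the gene that was lower, at 156 and 149 CPM with control and 2DG and at 26.2 to 62.9 in the other libraries.

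The receptor chains divided the classes in opposite ways. T-gated and NK-gated cells were above the B-gated and myeloid classes for Ifngr1 and below them for Ifngr2. Ifngr1 was highest in NK-gated cells (1069 to 1133 CPM in the 5 treated libraries) and in regulatory T cells (825 to 1138), which overlapped, followed by other T-gated cells (674 to 779) and by CD8 T-gated and CD4 T-gated cells (464 to 673). Monocyte-gated cells were at 189 to 360, macrophage-gated at 149 to 194, neutrophil-gated at 141 to 242 and B-gated at 65.4 to 122. Ifngr2 was low in NK-gated cells, at 1.58 to 7.90 CPM from 2 to 16 UMIs per treated library and 0 UMIs in the 21 control cells. CD8 T-gated cells were at 6.70 to 15.1 CPM and CD4 T-gated cells at 6.98 to 19.9, and these 3 ranges overlapped. Macrophage-gated cells were at 119 to 152, monocyte-gated at 96.8 to 142, neutrophil-gated at 75.1 to 155, dendritic-gated at 87.0 to 132 and B-gated at 42.2 to 91.4. The ranges of Ifngr2 in CD8 T-gated, CD4 T-gated and NK-gated cells did not meet those of any B-gated or myeloid class. At 1000 UMIs per cell, 0.430% to 1.20% of CD8 T-gated cells held Ifngr2, against 9.08% to 13.4% of monocyte-gated cells.

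**Figure D3:**
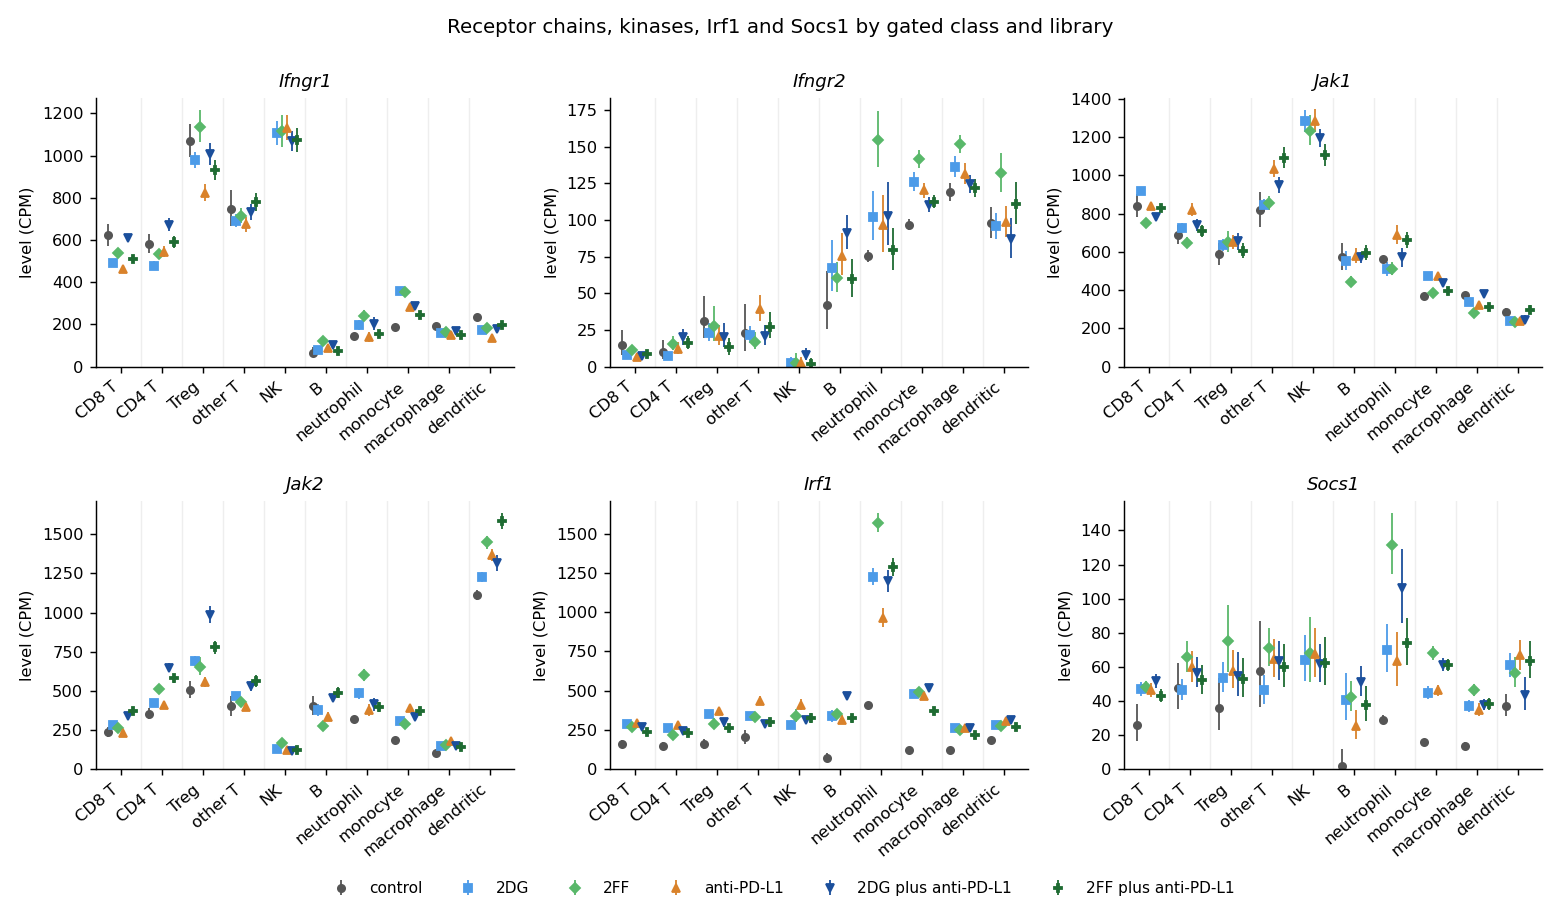
Level (CPM, linear axis starting at 0) of the 6 other members in 10 gated classes, with 1 point per library and bars for the exact Poisson 95% interval; classes under 50 cells are not drawn. Ifngr1 is highest in NK-gated and Treg cells where Ifngr2 is at 1.58 to 31.3 CPM, and Irf1 in neutrophil-gated cells lies at 408 CPM in the control library and at 964.5 to 1570 in the treated ones.

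The kinases split in the same classes. Jak1 was highest in NK-gated cells, at 1106 to 1286 CPM in the treated libraries, then in other T-gated (817 to 1092) and CD8 T-gated cells (753 to 919), whose ranges overlapped, and lowest in dendritic-gated cells (231 to 297). Jak2 was highest in dendritic-gated cells, at 1112, 1227, 1448, 1369, 1318 and 1585 CPM in the control library, with either inhibitor (2DG, then 2FF), with the antibody and with the 2DG and 2FF combinations. Every one of these values was above every value of another class, the next highest being regulatory T cells at 506 to 986. NK-gated (118 to 167) and macrophage-gated cells (103 to 183) were lowest for Jak2, and their ranges overlapped. These are orders of 1 gene across classes, since a level from 3' counts cannot be set between genes.

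Ifngr1 differed from control in opposite directions among the myeloid classes. In monocyte-gated cells it was at 189 CPM in the control library and at 360, 355, 285, 288 and 247 with 2DG, 2FF and anti-PD-L1 and with the 2DG and 2FF combinations, all 5 above control by 0.38 to 0.91 on the log2 scale. Under the strict gate it was past 2-fold with 2DG (1.18) and with 2FF (1.16). In macrophage-gated cells it was lower than control in 5 of 5 libraries, at 149 to 168.5 CPM against 194, with log2 ratios from -0.37 to -0.20. For anti-PD-L1 over control the value was -0.35 (-0.46 to -0.26), and -0.64 under the strict gate. Dendritic-gated cells were also lower in 5 of 5, from -0.74 to -0.25. Jak2 was higher than control in monocyte-gated, macrophage-gated, neutrophil-gated, dendritic-gated and CD4 T-gated cells in 5 of 5 libraries each, from 0.14 to 1.05, with intervals above 0. It passed 2-fold once, in monocyte-gated cells with anti-PD-L1 (393 CPM against 187, 1.05), and was short of it when centred on all genes (0.92). Ifngr2 and Jak1 were not past 2-fold in these myeloid classes, with Ifngr2 nearest to it at 0.99 in neutrophil-gated cells with 2FF.

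Irf1 was above control in 5 of 5 treated libraries in each class where a ratio was taken, by 0.51 to 2.59 on the log2 scale. In neutrophil-gated cells it was at 408 CPM in the control library and at 1226, 1570, 964.5, 1197 and 1285 with 2DG, 2FF and anti-PD-L1 and with the 2DG and 2FF combinations. In monocyte-gated cells it was at 124 CPM in the control library and at 482, 490, 467, 515 and 373 in the same treated libraries. The 5 treated values stood well clear of control in both classes. The log2 ratios were 1.58, 1.93, 1.23, 1.54 and 1.64 in neutrophil-gated cells and 1.92, 1.94, 1.87, 2.02 and 1.56 in monocyte-gated cells, with no lower bound under 1.15. In macrophage-gated cells Irf1 was at 121 CPM in the control library and at 263, 251, 260, 266 and 220, with log2 ratios of 1.09, 1.02, 1.07, 1.10 and 0.83. For anti-PD-L1 the interval was 1.01 to 1.20, and the value under the strict gate was 0.73, short of 2-fold, as were those of 2FF (0.84) and the 2DG combination (0.85).

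Lymphocytes had more Irf1 than control too. B-gated cells were at 73.8 CPM in the control library, from 35 UMIs in 73 cells, and at 338, 350, 317, 468 and 324 in the treated ones, with log2 ratios of 2.03 to 2.59. The summed stress and immediate early genes were at 8446 CPM in those control cells and at 3930 to 5856 in the treated ones, and their part in the Irf1 difference was not tested. CD8 T-gated cells were at 159 CPM in the control library and at 290, 272, 292, 270.5 and 240, with log2 ratios of 0.58 to 0.86, all short of 2-fold. The log2 ratios were 0.57 to 0.92 in CD4 T-gated cells, 0.51 to 0.73 in dendritic-gated cells and 0.69 to 1.18 in regulatory T cells, where 2 of 5 were past 2-fold. Each of these ranges lay below those of monocyte-gated, neutrophil-gated and B-gated cells. All of them share the 1 control library.

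Socs1 was higher than control in the same myeloid classes. Monocyte-gated cells were at 15.8 CPM in the control library (404 UMIs) and at 44.9, 67.9, 46.3, 61.1 and 61.0 with 2DG, 2FF and anti-PD-L1 and with the 2DG and 2FF combinations, or 2.835 to 4.29 times control. Macrophage-gated cells were at 13.5 CPM in the control library and at 37.0, 46.4, 34.7, 37.8 and 38.4, or 2.56 to 3.43 times control. With the 2DG combination the log2 ratio, with 5 CPM added, was 1.21 and went to 2.17 under the strict gate. Neutrophil-gated cells were at 29.2 CPM in the control library and at 70.0, 131.5, 63.2, 106 and 73.8, or 2.17 to 4.505 times control. With 5 CPM added, the log2 ratios were 1.26 to 1.81, 1.10 to 1.47 and, in neutrophil-gated cells, up to 2.00. The lowest, for anti-PD-L1 in neutrophil-gated cells, lay just short of 2-fold and was 0.88 when centred on all genes. For anti-PD-L1 over control in macrophage-gated cells the value was 1.10, with an interval of 1.08 to 1.64, and 0.98 in cells thinned to 1000 UMIs. As Socs1 is sparse, the added 5 CPM draws its ratios toward 0, and some lie under the interval of the plain ratio. In B-gated cells the control library had 1 Socs1 UMI and the treated libraries 37 to 137. CD8 T-gated cells were at 25.8 CPM in the control library and at 43.1 to 51.8 in the others, short of 2-fold with 5 CPM added.

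**Figure D4:**
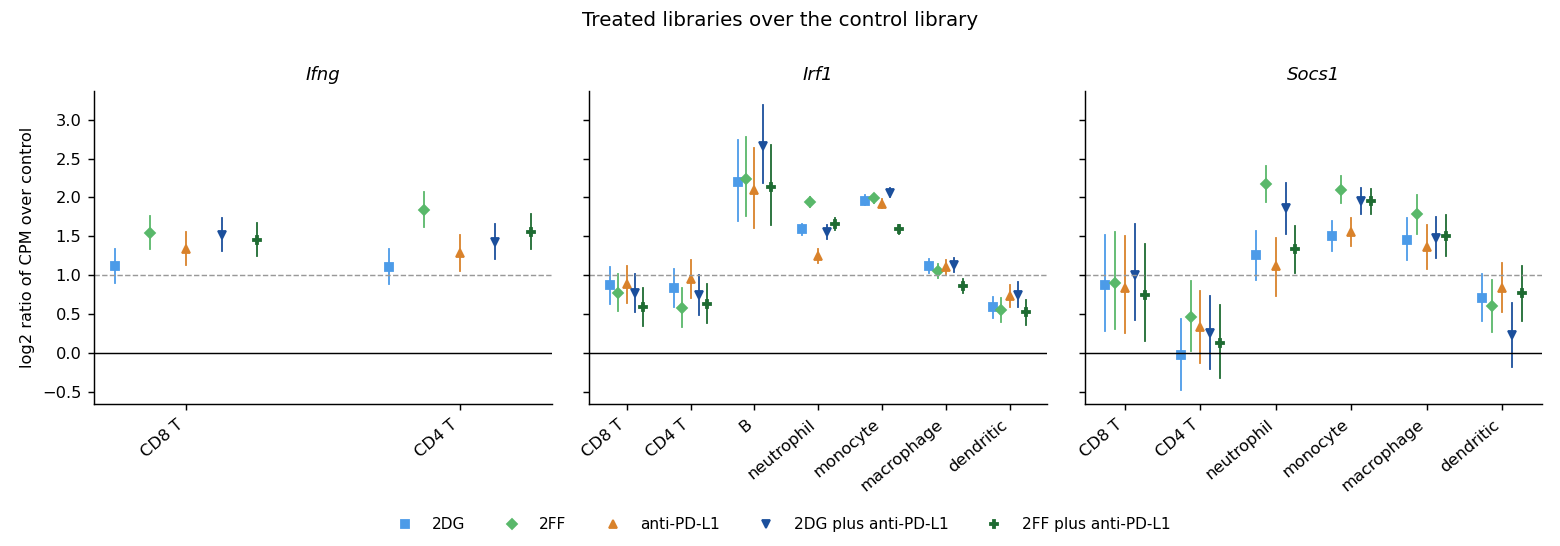
log2 ratio of CPM over the control library, with no pseudocount, for Ifng, Irf1 and Socs1 in gated classes; 1 point per treated library, bars for the exact 95% interval of the ratio of 2 counts, and a dashed line at 2-fold. Irf1 lies well above the line in B-gated, neutrophil-gated and monocyte-gated cells and under it in CD8 T-gated, CD4 T-gated and dendritic-gated cells.

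Read against all genes, 1 or 2 of 6 members were past 2-fold over control in neutrophil-gated cells in each comparison, all higher, where 11.1%, 10.9%, 8.73%, 9.57% and 7.13% of genes were past it with 2DG, 2FF and anti-PD-L1 and with the 2DG and 2FF combinations. In monocyte-gated cells 2 or 3 of 6 or 7 members were past it, beside 6.73%, 6.13%, 5.71%, 7.46% and 4.85% of genes. Irf1 and Socs1 were so in all 5, and the third was Ifng, at only 5.85 CPM, with 2FF and Jak2 with anti-PD-L1. In macrophage-gated cells 1 to 3 of 6 or 7 were past it, beside 2.18%, 3.47%, 2.13%, 4.58% and 2.88%. The third, with 2FF, was Ifng, at only 5.83 CPM. In B-gated cells 1 to 3 of 5 or 6 members were past 2-fold, beside 4.98%, 8.17%, 5.47%, 8.02% and 5.48%. In dendritic-gated cells none of 6 was past it, beside 1.45%, 3.31%, 2.45%, 6.63% and 5.98%. The median of all genes was itself above control by up to 0.17 on the log2 scale in neutrophil-gated cells and 0.15 in monocyte-gated cells.

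Other markers moved alongside these differences. The 5 T cell markers, summed, were at 6.11 CPM in monocyte-gated cells of the control library and at 15.4 to 41.2 in the treated libraries, and at 12.7 and 27.0 to 88.8 in neutrophil-gated cells, with no marker at 0 in either class. The summed neutrophil markers in monocyte-gated cells moved the other way, at 824.5 CPM in the control library and 242 to 472 in the treated ones. The 5 monocyte markers in neutrophil-gated cells were at 652 CPM in the control library and at 1167 to 2023 in the treated ones. Irf1 itself was at 408, 124 and 159 CPM in neutrophil-gated, monocyte-gated and CD8 T-gated cells of the control library. In the treated libraries it was at 964.5 to 1570, 373 to 515 and 240 to 292. The 13 stress and immediate early genes, summed, were at 17535 CPM in neutrophil-gated cells of the control library and at 12348 to 16589 in the treated ones, and at 10465 against 9606 to 12339 in monocyte-gated cells. In CD8 T-gated cells they were at 4027 CPM against 2764 to 4253. Genes within these sums moved in different directions. Hspa1b in CD8 T-gated cells was at 532 CPM in the control library and at 13.6 to 179 in the treated ones. Junb there was at 584 CPM against 612 to 1241. Hspa1b was at 361 CPM against 68.4 to 278 in neutrophil-gated cells and at 329 against 59.5 to 353.5 in monocyte-gated cells. Median depth was also higher in the control library, at 3754.5 against 2556 to 3205.5 UMIs in neutrophil-gated cells and 10209 against 6603 to 8151 in monocyte-gated cells. The part of all these in the Ifng, Irf1 and Socs1 differences was not tested.

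A wider list of genes known as IFNγ targets was higher over control in the myeloid classes. Which signal lay behind this difference was not tested. Of 19 tested genes of a list of 20, 9 to 14 were past 2-fold higher in monocyte-gated cells, over the 5 treated libraries. In neutrophil-gated cells 11 to 14 were, and in macrophage-gated cells 5 to 9. Of all genes, 4.85% to 7.46%, 7.13% to 11.1% and 2.13% to 4.58% were past 2-fold in either direction. The list's median log2 ratio was 0.92 to 1.38, 1.03 to 1.91 and 0.69 to 0.94 in these classes, where the median of all genes was 0.03 to 0.15, 0.01 to 0.17 and -0.08 to 0.00. In CD8 T-gated cells 2 to 4 of 19 were past 2-fold higher and 0 or 1 lower, with medians of 0.10 to 0.50, beside 2.54% to 4.06% of all genes. The higher ones were Cd74 and Cxcl9 and, in some libraries, Cxcl10 and Fcgr1. Cxcl9 was at 11.8 CPM in these control cells and 31.3 to 42.1 in the treated ones, against 502.5 and 1077 to 1383 in macrophage-gated cells. Cd74 was likewise far under its macrophage-gated level. Whether these UMIs were carried over from other cells was not tested. In dendritic-gated cells 0 to 4 were past 2-fold higher and 1 or 2 lower, with medians of 0.15 to 0.43, beside 1.45% to 6.63% of all genes. The 2FF library had the highest median in neutrophil-gated, monocyte-gated and macrophage-gated cells.

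**Figure D5:**
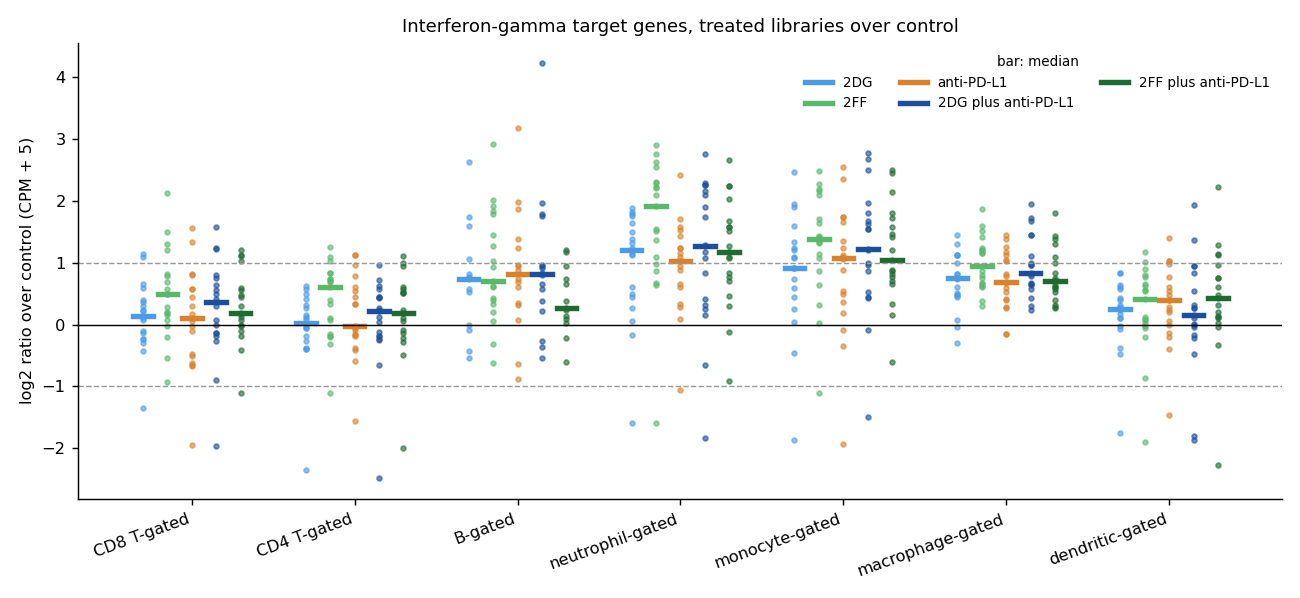
log2 ratio over the control library (CPM plus 5) of IFNγ target genes in 7 gated classes; 1 point per gene with at least 50 UMIs, a bar for the median of each treated library, and dashed lines at 2-fold in either direction. Medians lie at 0.92 or above in neutrophil-gated and monocyte-gated cells and at 0.50 or below in CD8 T-gated cells.

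Cxcl9 and Cxcl10, chemokines that draw CXCR3-bearing T cells, were among the genes that differed most. Cxcl9 in monocyte-gated cells was at 88.8 CPM in the control library and at 280, 415, 542, 636 and 411.5 with 2DG, 2FF and anti-PD-L1 and with the 2DG and 2FF combinations. In macrophage-gated cells, where it was most abundant, it was at 502.5 CPM in the control library and at 1103, 1169, 1372, 1383 and 1077. The GTPase genes Gbp2, Igtp and Iigp1 were higher in monocyte-gated cells in 5 of 5 libraries, by 1.09 to 1.64, 1.08 to 1.72 and 1.74 to 2.68. Ciita, the master regulator of MHC class II genes, was at 27.5 CPM in control monocyte-gated cells and at 109 to 175 in the treated ones.

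Not all targets were higher. Nos2, the inducible nitric oxide synthase, was lower than control in monocyte-gated and neutrophil-gated cells, at 472 CPM in control monocyte-gated cells and at 126, 216, 120, 164 and 308 in the treated ones. It was past 2-fold lower in 4 of 5 libraries in each class, and short of it with 2FF plus anti-PD-L1. In macrophage-gated cells Nos2 went both ways, short of 2-fold. It was at 171 CPM there in the control library and at 139, 262, 154, 201 and 268.5 in the same treated libraries. In dendritic-gated cells Nos2 was past 2-fold lower in 5 of 5, at 23.6 CPM in the control library and 0.919 to 5.40 in the treated ones, and Iigp1 was lower with the 2DG combination. Nos2 was also the gene that was lower in CD8 T-gated cells, at 33.3 CPM in the control library and 4.89 to 15.1 in the treated ones. These and the dendritic-gated levels lay far under those of monocyte-gated cells, and carry-over from other cells was not tested. Cd274, which encodes PD-L1, was at 456 CPM in control monocyte-gated cells and at 543, 835, 520, 663 and 831 in the treated ones, short of 2-fold in 5 of 5. In macrophage-gated cells it was past 2-fold with 2FF (656 CPM against 294, 1.15) and at the 2-fold line with 2FF plus anti-PD-L1 (593 CPM). In B-gated cells Cd274 was at 251 CPM in the control library and at 527, 517.5, 421, 486 and 420 in the treated ones. Of the 5 myeloid cytokines that induce Ifng, the 3 tested in monocyte-gated cells, Il27, Il15 and Il18, were higher there than in control. Il27 was at 8.38 CPM there in the control library and at 20.7, 31.8, 26.0, 32.6 and 38.1 in the treated ones, past 2-fold in all but the 2DG library (0.94). It was at 8.34 CPM against 14.1 to 21.2 in macrophage-gated cells, short of 2-fold, and at 4.75 against 11.6 to 23.1 in neutrophil-gated cells, from 14 to 39 UMIs per treated library. Il15 was at 24.3 CPM in control monocyte-gated cells and at 38.8 to 65.8 in the treated ones, past 2-fold with both combinations. Il15 was lower in neutrophil-gated cells (607 CPM against 168 to 368) and macrophage-gated cells (48.2 CPM against 14.7 to 27.7). Il12b, also of this list, was highest in dendritic-gated cells, at 125 CPM in the control library and at 126, 84.1, 71.0, 98.8 and 72.15 in the treated ones. The list's median log2 ratio was 0.64 to 1.27 in monocyte-gated and -0.16 to 0.76 in neutrophil-gated cells. It was -0.62 to -0.19 in macrophage-gated and -0.60 to -0.22 in dendritic-gated cells.

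Between combination and anti-PD-L1 alone, which do not involve the control library, the response genes differed little. No member was past 2-fold in monocyte-gated cells, where 0.524% of genes were with the 2DG combination and 0.576% with the 2FF combination, nor in macrophage-gated cells, beside 1.15% and 0.687%. Irf1 in monocyte-gated cells was at 0.14 (0.10 to 0.19) with the 2DG combination and at -0.32 (-0.37 to -0.28) with the 2FF combination. Socs1 was 0.36 higher there with both combinations (0.26 to 0.53 and 0.27 to 0.53). The target list was at a median of 0.33 and 0.37 in monocyte-gated cells, with 0 and 1 of 19 genes past 2-fold, beside -0.06 and -0.09 for all genes. In macrophage-gated cells the medians were 0.37 and 0.12, with none of 19 past 2-fold.

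Jak2 was higher in T cells with either combination than with anti-PD-L1 alone, short of 2-fold in CD8 T-gated and CD4 T-gated cells. In CD8 T-gated cells it was at 232 CPM with anti-PD-L1, 340.5 with the 2DG combination and 371.5 with the 2FF combination, log2 ratios of 0.54 (0.48 to 0.62) and 0.67 (0.61 to 0.75). In CD4 T-gated cells it was at 411, 648 and 581 CPM, with ratios of 0.65 (0.55 to 0.76) and 0.49 (0.39 to 0.61). Regulatory T cells were at 557, 986 and 779 CPM. In all 3 T cell classes both combinations were above every other library. The 13 stress and immediate early genes, summed, moved with this in part: they were at 2898 CPM with anti-PD-L1, 4253 with the 2DG combination and 3420 with the 2FF combination in CD8 T-gated cells, at 3413, 4706 and 4046 in CD4 T-gated cells, and at 3395, 4028 and 3211 in regulatory T cells. Their part in the Jak2, Il12rb2 and Stat4 differences was not tested. Ifngr1 was 0.39 higher in CD8 T-gated cells with the 2DG combination (0.34 to 0.44) and 0.14 higher with the 2FF combination (0.08 to 0.19). Irf1 was lower in CD8 T-gated cells, at -0.11 (-0.18 to -0.04) and -0.28 (-0.36 to -0.21).

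Keratin-positive tumor-gated cells, pooled over the 6 libraries, numbered 69 and had little Ptprc, the gene of CD45 (73.9 CPM, against 946 in macrophage-gated and 2472 in CD8 T-gated cells). They held Ifngr1 at 53.6 CPM (41.8 to 67.6), Ifngr2 at 89.0 (73.7 to 107), Jak1 at 211 (187 to 237.5), Jak2 at 163 (142 to 186), Irf1 at 198 (174.5 to 223) and Socs1 at 36.2 (26.7 to 48.0), so each part of the receptor side was detected. Ifng had 4 UMIs there. The pool leans on 1 library: the 15 cells of the 2FF combination gave 119 of its 262 Irf1 UMIs and 53 of its 118 Ifngr2 UMIs. As 2 of the 69 cells came from the control library, no comparison with control was made. The endothelial gate caught 114 cells with Ptprc at 2099 CPM, against its label, and was left out.

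Over the 59 pairs of class and library with at least 50 cells, in 10 classes and 6 libraries, the genes whose log2 levels followed Ifng most closely were Apol7e, Ms4a4b and Nkg7, with Pearson's r of 0.976, 0.974 and 0.965. The last is a granule gene of cytotoxic cells. Ifngr1 was followed by Abcb1a, Prkch and Tex2 (0.948, 0.934 and 0.932), Ifngr2 by Ctsz, Il6ra and Arhgef11 (0.955, 0.947 and 0.935), Jak1 by Vps37b first (0.956) and Jak2 by Paxbp1, Lsp1 and Sema7a (0.851, 0.838 and 0.825). Irf1 was followed less closely, by Ifit3b, Trim12c and Camp (0.803, 0.790 and 0.784), and Socs1 by Irf1 first (0.692), then Capn1 and Pde12 (0.680 and 0.675). These points share libraries and classes, so they describe the pattern over classes and carry no test.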

How the data were processed

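Single-cell libraries (10x Chromium, 3' chemistry) of 6 mice were analysed, from UMI counts per gene and cell that the authors deposited as filtered matrices. File headers and the study's methods give Cell Ranger 7.0.0, the submitters' processing notes 3.1.0, on mm10. No column of per-sample values was left out (0). Cells with at least 250 genes and at most 5% mitochondrial UMIs were gated by marker lists, and no doublet caller was run: the strict gate, at least 3 markers and at most 1 of any other list, is the alternative. UMIs were summed per library and class and given as CPM. With 1 library per treatment there was no test. Exact Poisson and Clopper-Pearson intervals (95%) cover counting error only. Ratios are of CPM plus 5, for genes with at least 50 UMIs in the pair and classes of at least 50 cells. Genes past 2-fold were counted. Named genes are the members, the pathway and marker lists and, for each member, the 3 most alike in log2(CPM + 5) among genes with at least 500 UMIs. Some named genes are not reported here. Members and lists were chosen with earlier results of these data known. The ratio and interval code was tested on simulated data. Python 3.11.15, numpy 2.4.6, scipy 1.17.1 and pandas 2.3.3 were used.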

Additional observations from a re-analysis of the deposited data

Results flagged for a closer look

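Adding anti-PD-L1 to 2DG and adding it to 2FF went in opposite directions, each with a counting interval that excluded 0, for 9 of 65 pairs of member and class. The difference was not tested, as each value compares 1 library with 1 other. The same count was not made over all genes, so 9 of 65 has no background share beside it. With many UMIs the intervals are narrow, and a small difference between libraries can exclude 0. The intervals also take UMIs as independent and leave out how unevenly cells carry a gene. Without the top 1% of cells, 14 of 77 recomputed ratios moved out of their interval. The values are log2 ratios over the inhibitor alone. Ifng was at 0.40 with 2DG and -0.09 with 2FF in CD8 T-gated cells, 0.33 and -0.29 in CD4 T-gated cells and 0.51 and -0.84 in other T-gated cells. The -0.09 changed sign under the strict gate. Ifngr1 was at 0.31 and -0.08 in CD8 T-gated cells and 0.40 and -0.66 in B-gated cells. Jak1 was at -0.23 and 0.14 in CD8 T-gated cells. Socs1 was at 0.57 and -0.79 in neutrophil-gated cells and 0.41 and -0.14 in monocyte-gated cells, and Irf1 at 0.10 and -0.39 in monocyte-gated cells. Every one of these is short of 2-fold.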

How the results depend on the processing

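No paired analysis was possible because each treatment has 1 library and the labels give no replicate numbers. Of 616 recomputed values (77 ratios under 8 alternatives), 523 stayed within the counting interval, 92 moved out of it and 1 changed sign: Ifng in CD8 T-gated cells, the 2FF combination over 2FF, at 0.01 under the strict gate. All 77 stayed within it with the 10% mitochondrial limit, without shared barcodes and without ribosomal and mitochondrial UMIs. The strict gate moved 40 of its 77 ratios out of the interval and left 36 within it. Under that gate Ifng in CD8 T-gated cells, the 2FF combination over the antibody, was 0.22, and for anti-PD-L1 over control in macrophage-gated cells Ifngr1 was -0.64, Irf1 0.73 and Socs1 1.60. Socs1 there with the 2DG combination over control went from 1.21 to 2.17. The strict gate keeps 32.3% to 41.7% of macrophage-gated cells. Over anti-PD-L1 in CD8 T-gated cells, Ifng was 0.23 for the 2DG combination when centred on all genes, and 0.04 for the 2FF combination without the top 1% of cells. Of the 77 ratios, 7 crossed the 2-fold line under the strict gate, 3 in thinned cells, 3 when centred, and 1 each with the 10% mitochondrial limit, 1 CPM added, shared barcodes left out and the top 1% of cells left out. Socs1 in neutrophil-gated cells with 2DG over control went from 1.13 to 0.97 when centred. The causes were not tested. Counts of genes past 2-fold differed by over 1.5 times in 13 of 45 comparisons with at least 10 UMIs (65 to 524 becoming 120 to 1186) and in 34 of 45 with 1 CPM added (57 to 1082 becoming 148 to 1975). The alternative without shared barcodes was chosen after seeing the data. Ifng in NK-gated cells and Irf1 in tumor-gated cells, anti-PD-L1 over control, could not be computed, with 21 and 2 control cells.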
